A study of Homo sapiens with 12 samples.

Results

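THAL-SNS-032 was compared with SNS-032, the inhibitor from which it was built, in the established line MOLT4, grown from a human acute lymphoblastic leukemia of T cells (T-ALL). The comparison rests on 6 of the 12 samples of the series, the 3 labelled THAL-SNS-032 and the 3 labelled SNS-032, each treated for 6 h at 250 nM, so dose and time were matched and the agents differed. The other 6 samples, 3 in 0.1% DMSO (the vehicle) and 3 in 250 nM NVP-2 for 6 h, gave the reference levels and entered the estimate of the spread. Poly(A) RNA was sequenced in stranded libraries after synthetic ERCC spike-in RNA had been added at lysis. FPKM by name is a fragment count scaled by transcript length and library size. The deposited values summed to between 3.04e+06 and 3.48e+06 in DMSO samples and between 588134 and 735091 in NVP-2 samples. Library size alone may therefore not describe their scale. The 11381 of 23619 genes (48.2%) that averaged at least 1 FPKM across all 12 samples were tested. Whether samples of 1 group were grown apart is not in the labels, and the p-values therefore reflect the scatter among these libraries, some or all of which may be technical. All values come from 1 cell line, and the table holds no counts, so the read depth behind each value is unknown.

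SNS-032 blocks the active site of several cyclin-dependent kinases, among them CDK9, CDK7 and CDK2. CDK9 with cyclin T forms P-TEFb, the kinase that releases paused RNA polymerase II into productive elongation, and transcripts that turn over quickly depend on its continuous activity. THAL-SNS-032 joins SNS-032 through a linker to a thalidomide derivative that binds cereblon, which selects substrates for a CUL4 ubiquitin ligase, so that the bound kinase can be ubiquitinated and degraded. NVP-2 is an inhibitor of CDK9 without a cereblon ligand. The question that the pair addresses is which transcripts differ when the same kinase ligand carries the degrading moiety. RNA levels alone were measured, and no value here gives the amount of CDK9 protein.

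The promoter stretches of 6 genes whose levels differed most, or on which the groups described here turn, are shown first to place the text of the genome beside the levels that follow. Each run is the 250 bases before the annotated start in RefSeq, build GRCh38.p14, written 5′ to 3′ on the strand of the gene. Capitals mark matches on either strand to the TATA box letters TATAAA, the E-box CACGTG, the AP-1 motif TGACTCA, the GC box GGGCGG or the CCAAT box, and matches may overlap. GTF2B, PPM1D and NOP16 were among the 15 largest differences downward, and KRCC1 and HHEX among the 15 largest upward. NOTCH1 had the largest difference upward in its pathway.
GTF2B, chr1:88891568-88891817, minus strand: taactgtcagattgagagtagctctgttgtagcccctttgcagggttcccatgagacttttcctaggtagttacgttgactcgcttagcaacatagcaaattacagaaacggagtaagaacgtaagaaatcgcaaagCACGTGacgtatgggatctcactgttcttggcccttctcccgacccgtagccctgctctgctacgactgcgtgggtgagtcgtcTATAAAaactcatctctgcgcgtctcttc
PPM1D, chr17:60599943-60600192, plus strand: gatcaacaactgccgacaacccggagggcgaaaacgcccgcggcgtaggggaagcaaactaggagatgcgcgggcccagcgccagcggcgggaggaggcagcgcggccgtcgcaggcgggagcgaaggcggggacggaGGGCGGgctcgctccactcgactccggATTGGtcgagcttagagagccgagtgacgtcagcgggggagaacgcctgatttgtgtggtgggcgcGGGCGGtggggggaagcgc
NOP16, chr5:176388599-176388848, minus strand: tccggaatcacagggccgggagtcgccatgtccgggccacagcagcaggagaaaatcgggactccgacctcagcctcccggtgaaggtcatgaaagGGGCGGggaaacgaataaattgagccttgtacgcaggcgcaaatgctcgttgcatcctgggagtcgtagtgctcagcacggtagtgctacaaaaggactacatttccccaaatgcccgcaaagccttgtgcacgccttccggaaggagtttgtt
KRCC1, chr2:88055784-88056033, minus strand: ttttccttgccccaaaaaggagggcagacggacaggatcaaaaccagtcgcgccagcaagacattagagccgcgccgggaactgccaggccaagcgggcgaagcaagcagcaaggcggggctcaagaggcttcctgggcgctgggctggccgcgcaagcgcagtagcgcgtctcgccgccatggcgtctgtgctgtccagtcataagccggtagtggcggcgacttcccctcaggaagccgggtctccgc
HHEX, chr10:92689705-92689954, plus strand: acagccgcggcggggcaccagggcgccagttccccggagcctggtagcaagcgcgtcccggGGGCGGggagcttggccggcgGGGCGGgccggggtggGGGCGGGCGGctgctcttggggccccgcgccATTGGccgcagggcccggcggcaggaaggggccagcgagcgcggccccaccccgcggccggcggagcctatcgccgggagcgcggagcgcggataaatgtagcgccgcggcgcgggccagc
NOTCH1, chr9:136546049-136546298, minus strand: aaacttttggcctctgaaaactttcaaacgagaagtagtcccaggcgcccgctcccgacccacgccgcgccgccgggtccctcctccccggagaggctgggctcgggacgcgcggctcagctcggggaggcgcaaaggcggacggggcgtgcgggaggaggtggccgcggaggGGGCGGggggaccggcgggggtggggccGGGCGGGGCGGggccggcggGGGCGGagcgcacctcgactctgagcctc
The GTF2B run holds 1 TATAAA and 1 CACGTG match, and these 2 motifs occur in 10.7% and 6.34% of all 35116 RefSeq windows of this length. GGGCGG, which occurs in 42.6% of windows, was found in the PPM1D, NOP16, HHEX and NOTCH1 runs and not in the other two. CCAAT, which occurs in 32% of windows, was found in the PPM1D and HHEX runs, and TGACTCA, which occurs in 4.20%, in none of the 6. A match is a run of letters and no measured site. No share of called genes with a motif is given, because only 78.3% of the tested genes matched a window and such a check would be void.

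Many transcripts were far lower with the degrader than with its parent, and few were far higher. With limma and Benjamini-Hochberg adjustment over the 11381 genes, 3425 (30.1%) were called at an adjusted p under 0.05, of which 1525 (13.4%) were higher and 1900 (16.7%) lower with THAL-SNS-032. Differences are in mean log2(FPKM + 1), THAL-SNS-032 minus SNS-032, a scale that understates the change of low genes. A value in brackets after a gene name is this difference. By at least 2-fold, 84 genes were higher and 892 lower, and by at least 4-fold 9 were higher and 195 lower. Of the called genes, 27 higher and 44 lower ones reached a mean of 1 FPKM only through the group of the pair where they were highest, 15 of the 84 and 21 of the 892 among them. The median called difference was 0.61 upward and -0.95 downward. The median of all 11381 differences was 0.139 and their mean -0.041, so the middle of the distribution and its average differed in sign. The 95% interval stayed inside 2-fold in both directions for 8754 genes (76.9%), and 7666 of these were not called.

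SNS-032 replicate 1 was low across genes and bore on these counts. Its median gene stood at 2.23 on the log2(FPKM + 1) scale, against 2.98 and 2.82 in the other two SNS-032 samples and 2.53, 2.70 and 2.54 with THAL-SNS-032. The THAL-SNS-032 medians thus lay inside the range of SNS-032 and differed from it by -0.086 (exact two-sided permutation p = 0.9, where 3 against 3 cannot go below 0.1). The spike-ins did not share the low level, with medians between -0.017 and 0.058 (log2) around their own means in all 12 samples. A table scaled to its spike-ins would have them level in any case. How they entered this scale is not known, and the source of the low level was not tested. Without this sample 1499 genes were higher and 3424 lower, 44 and 1275 of them by at least 2-fold, and the median difference turned to -0.046. List counts given without this sample therefore stand beside 3424 lower and 1499 higher of all 11381 genes, not beside 1900 and 1525. Of the genes called with all samples, 1425 of the 1525 higher and 1886 of the 1900 lower remained called in the same direction. The count of higher genes was 2765 without SNS-032 replicate 2, and 960, 614 and 907 without THAL-SNS-032 replicates 1, 2 and 3, and with every library centred on its own median the split was 5822 higher and 2629 lower (68.9% of calls higher, against 44.5%). Gene by gene, 398 higher and 1340 lower calls were made under every one of 22 alternatives in which the scale, the filter, the fit or 1 sample was changed (a 2-fold minimum and a mean of 5 FPKM, which change what is tested, were left out), and 79 and 863 of these differed by at least 2-fold.

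**Figure D1:**
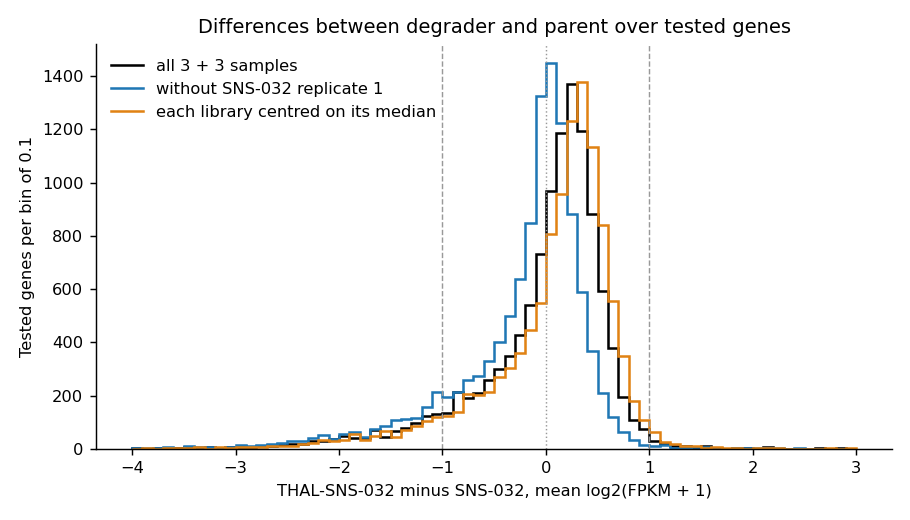
Number of tested genes (vertical axis) by THAL-SNS-032 minus SNS-032 difference in mean log2(FPKM + 1) (horizontal axis, bins of 0.1, from -4 to 3), with all samples, without SNS-032 replicate 1 and with libraries centred on their medians. Dashed lines mark 2-fold. In all 3 outlines the left tail is the longer one, with 892 genes called at least 2-fold lower against 84 at least 2-fold higher with all samples.

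**Figure D2:**
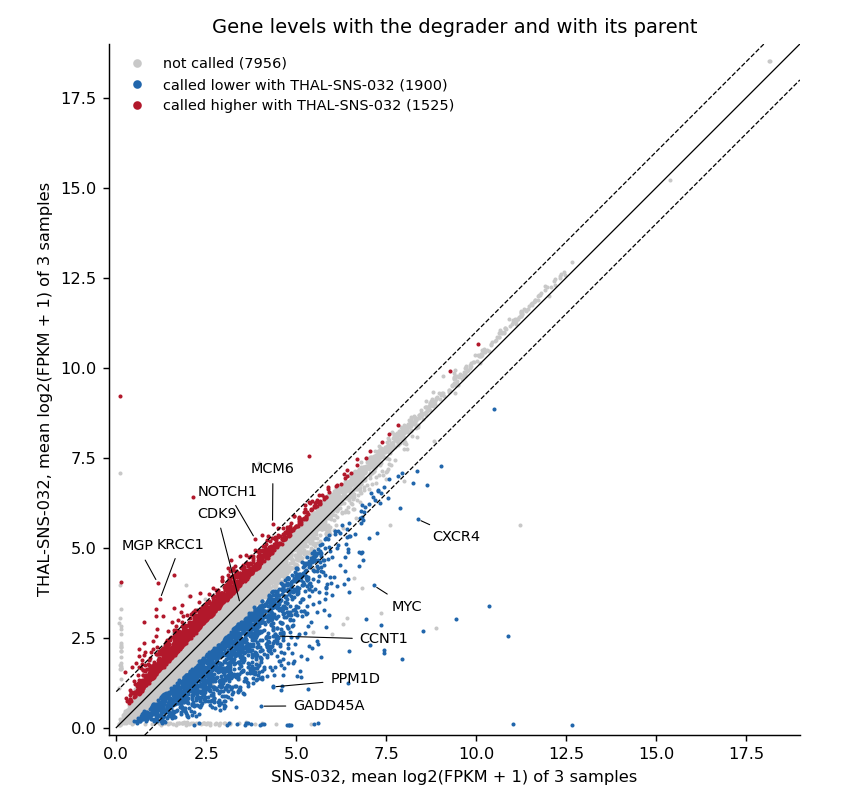
Mean log2(FPKM + 1) of the 3 SNS-032 samples (horizontal axis) and of the 3 THAL-SNS-032 samples (vertical axis) for each of the 11381 tested genes, with lines of equality and of 2-fold. Blue points are the 1900 genes called lower and red points the 1525 called higher. CDK9 sits on the line of equality, while MYC, PPM1D and GADD45A lie far below it and MGP and KRCC1 above it.

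The transcripts of both cyclin partners of CDK9 were lower with the degrader than with the parent, while that of CDK9 itself did not pass the test. CDK9 was at 6.96, 12.8 and 10.8 FPKM with SNS-032 and 8.93, 10.9 and 9.47 FPKM with THAL-SNS-032, overlapping ranges that were both below DMSO (36.1 ± 4.16 FPKM, SD, n = 3). The difference was -0.022 (SE 0.19, 95% interval -0.43 to 0.39, adjusted p = 0.942, limma), and without SNS-032 replicate 1 it was -0.25. CCNT1, the main cyclin partner of CDK9, was at 14.6, 27.2 and 23.2 FPKM with SNS-032 and 4.78, 5.33 and 4.42 FPKM with THAL-SNS-032, and the lowest parent sample was above the highest degrader sample. The CCNT1 difference was -1.92 (SE 0.19, adjusted p = 3.44e-06, limma). Its level was 26.8 ± 1.49 FPKM (SD, n = 3) in DMSO and 0.863 ± 0.108 FPKM with NVP-2. CCNT2, the alternative cyclin, was at 12, 21.8 and 19.3 FPKM with SNS-032 and 3.73, 4.35 and 3.71 FPKM with THAL-SNS-032 and differed by -1.89. In every degrader sample both cyclin transcripts were below every parent sample.

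Genes that bring P-TEFb to chromatin were lower with the degrader in 6 of 11 tested cases (54.5%, against 16.7% of all genes) and higher in none. The list median was -0.80 against 0.139 for all genes. Among the 6 were BRD2 (-1.53), a bromodomain reader of acetylated histones, ELL (-1.37) and its partner EAF1 (-1.36), and the super elongation complex scaffolds AFF4 (-0.97) and AFF1 (-0.80). BRD2 was at 26.5, 51.8 and 47.2 FPKM with SNS-032 and 13.4, 14.2 and 12.4 FPKM with THAL-SNS-032, and the groups did not overlap. The count of lower members was 6 with every sample left out in turn. Of 4 genes of the 7SK particle, which holds P-TEFb inactive, only LARP7, the La-related protein that binds 7SK RNA, was called. It was higher (0.67), which makes 25% of the 4 against 13.4% of all genes. HEXIM1, the inhibitor itself, had 0.45 and did not pass. In that particle 1 gene was lower without SNS-032 replicate 1. Among 14 pausing and elongation factors 1 was lower (7.14%, against 16.7% of all genes), LEO1 of the Paf1 complex (-1.66). Higher were 2 (14.3%, near the 13.4% of all genes), NELFE of the negative elongation factor (0.56) and SUPT4H1 of the DSIF complex (0.59). The number higher was 5 without SNS-032 replicate 2, and the number lower 3 without SNS-032 replicate 1. LARP7 was not called without THAL-SNS-032 replicate 2 or 3. NELFE was called when any 1 SNS-032 sample was left out, and not when any other single sample was. SUPT4H1 was not called without DMSO replicate 2 or any 1 THAL-SNS-032 sample or any 1 NVP-2 sample. HEXIM1 passed without any 1 SNS-032 sample.

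The genes of other kinases that SNS-032 binds did not follow one pattern. CDK7, the TFIIH kinase, was at 2.53, 5.19 and 4.52 FPKM with SNS-032 and 1.21, 1.48 and 1.16 FPKM with THAL-SNS-032, a difference of -1.12 (SE 0.18, adjusted p = 0.000276, limma). CDK2, a cell cycle kinase, was at 30.2, 54.2 and 50.2 FPKM and 55.1, 64.4 and 59.8 FPKM, and its difference of 0.45 did not pass (adjusted p = 0.109, limma). Among 14 transcriptional kinases and cyclins besides P-TEFb, 5 were lower (35.7%, against 16.7% of all genes) and none higher. They were CCNL1 (-1.44), a cyclin of splicing-linked kinases, CCNK (-1.18) with its kinase CDK12 (-0.55), CDK7, and the Mediator kinase CDK8 (-0.82). Without SNS-032 replicate 2, 4 of the 14 were higher. CDK12 was not called without SNS-032 replicate 2 or 3 or any 1 THAL-SNS-032 sample. CDK2 passed without SNS-032 replicate 2.

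Among RNA polymerase II subunits and general factors the shares called were near or under those of all genes, with 5 of 28 lower (17.9%, against 16.7%), 2 higher (7.14%, against 13.4%) and 21 not called. The member with the largest difference was GTF2B. GTF2B, which encodes TFIIB, the factor that bridges promoter and polymerase, was at 13, 25.2 and 22.1 FPKM with SNS-032 and 1.13, 1.14 and 1.41 FPKM with THAL-SNS-032, so that every degrader sample was far below every parent sample. Its difference was -3.2 (SE 0.20, adjusted p = 1.16e-07, limma), from 78.4 ± 7.08 FPKM (SD, n = 3) in DMSO. TBP, the TATA-binding protein gene, differed by -1.44 and GTF2E1, a TFIIE subunit gene, by -1.16, while GTF2F2 of TFIIF was higher (0.67). POLR2A, the largest polymerase subunit, had -0.17 and did not pass. The number of lower members was 12 without SNS-032 replicate 1, beside 3424 of all 11381 genes in that setting. The number higher was 4 without SNS-032 replicate 2, 0 without THAL-SNS-032 replicate 2 or 3 and 1 without THAL-SNS-032 replicate 1 or any 1 DMSO or NVP-2 sample. Of 30 Mediator subunits 8 were lower (26.7%), led by MED18 (-2.55) and MED26 (-2.31), and 5 were higher (16.7%), up to MED11 (0.78), with 13 lower without SNS-032 replicate 1 and 3 higher without any 1 of the THAL-SNS-032 samples. GTF2F2 was not called without THAL-SNS-032 replicate 2 or 3. POLR2A passed without SNS-032 replicate 1.

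MYC and the survival gene MCL1, both with short-lived transcripts, were lower with the degrader. MYC was at 100.1, 169.9 and 166 FPKM with SNS-032 and 12.9, 17 and 13.8 FPKM with THAL-SNS-032, against 331 ± 27.4 FPKM (SD, n = 3) in DMSO and 6.73 ± 0.74 FPKM with NVP-2. The difference was -3.2 (SE 0.20, adjusted p = 1.50e-07, limma), and the groups did not overlap. MCL1, which restrains mitochondrial cell death, was at 31.9, 60.6 and 53.2 FPKM and 18, 20.5 and 19.3 FPKM, a difference of -1.24 (SE 0.20, adjusted p = 0.000378, limma). These differences were -3.45 and -1.51 without SNS-032 replicate 1. MAX, the dimer partner of MYC, and MXD1, a MAX-binding repressor, were lower too (-0.88 and -1.4). They were 2 of the 4 lower (40%, against 16.7% of all genes) and 0 higher among 10 genes of the MYC network (1 higher without SNS-032 replicate 2).

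Of 30 genes listed as MYC targets 7 were higher with the degrader (23.3%, against 13.4% of all genes) and 2 lower (6.67%, against 16.7%), and the list median was 0.30, or 0.058 without SNS-032 replicate 1. RCC1, the nucleotide exchange factor of a nuclear transport GTPase, led those higher (1.11), with the pyrimidine enzyme CAD (0.96), CDK4 (0.94) and the purine enzyme GART (0.75). CAD was at 3.01, 5.49 and 4.72 FPKM with SNS-032 and 8.84, 10.1 and 9.02 FPKM with THAL-SNS-032, and the groups did not overlap. The 2 lower were CDC25A, a phosphatase that activates cell cycle kinases (-2.02), and the cap-binding factor EIF4E (-0.59). Without THAL-SNS-032 replicate 2 the number higher was 4, beside 614 of all 11381 genes in that setting. The number lower was 4 without SNS-032 replicate 1 and 1 without NVP-2 replicate 3 or any 1 of the other THAL-SNS-032 and SNS-032 samples. GART was not called without THAL-SNS-032 replicate 2. EIF4E was not called without SNS-032 replicate 2 or 3 or any 1 THAL-SNS-032 sample or NVP-2 replicate 3.

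Among 9 survival genes of the BCL2 and IAP families only MCL1 and BIRC3 (-0.90) were called, both lower (22.2%, near the 16.7% of all genes). The number lower was 6 without SNS-032 replicate 1, beside 3424 of all 11381 genes, and the number higher 1 without SNS-032 replicate 2. BCL2, at 1.21, 2.46 and 2.05 FPKM and 2.38, 2.49 and 2.33 FPKM, and XIAP, at 3.02, 6.25 and 5.0 FPKM and 4.27, 5.08 and 4.63 FPKM, had differences of 0.25 (95% interval -0.074 to 0.57) and 0.014 (-0.37 to 0.40) that did not pass. Of 8 death-promoting members of the BCL2 family, 4 were lower (50%) and 0 higher. BBC3, which encodes PUMA, was at 2.55, 5.13 and 3.78 FPKM with SNS-032 and 0.585, 0.517 and 0.544 FPKM with THAL-SNS-032 (-1.6), and BAK1 (-1.17), BCL2L11 (-0.86), which encodes BIM, and PMAIP1 (-0.69), which encodes NOXA, were the others. BBC3 passed the filter on low values only through the SNS-032 samples, where it was highest. PMAIP1 was not called without SNS-032 replicate 2 or 3 or THAL-SNS-032 replicate 1 or 3. BCL2 passed without SNS-032 replicate 2.

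Target genes of p53, the stress-activated transcription factor, were mostly lower with the degrader. Of 27 tested, 19 were lower (70.4%, against 16.7% of all genes), 1 was higher (3.7%, against 13.4%) and 7 did not pass, with a median of -1.17. The list was chosen with earlier results of these samples known and is no independent evidence of its direction. GADD45A, a growth arrest gene, was at 9.33, 21.4 and 17.1 FPKM with SNS-032 and 0.516, 0.577 and 0.442 FPKM with THAL-SNS-032, and PPM1D, the phosphatase that feeds back on p53, was at 13.2, 24.8 and 21.8 FPKM and 1.09, 1.43 and 1.05 FPKM. SESN1, a stress-induced regulator of mTORC1, was at 16.3, 29.7 and 27.8 FPKM and 1.84, 2.01 and 1.39 FPKM. In all 3 genes the degrader samples lay close together and far below the parent samples, with differences of -3.42, -3.21 and -3.18 (adjusted p = 1.48e-07, 1.06e-07 and 1.16e-07, limma).

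Some of these genes were above DMSO with the parent and below it with the degrader. TP53INP1, which encodes a p53-induced nuclear protein, was at 2.5 ± 0.219 FPKM (SD, n = 3) in DMSO, 6.75, 13 and 10.7 FPKM with SNS-032 and 1.13, 1.2 and 1.18 FPKM with THAL-SNS-032. The corresponding differences from DMSO were 1.63 and -0.69, and for ZMAT3, a p53-induced RNA-binding protein gene, 1.21 and -0.72; both comparisons share the DMSO samples. Between the compounds TP53INP1 differed by -2.32 and ZMAT3 by -1.93. CDKN1A, which encodes the kinase inhibitor p21, was the 1 higher member, at 1.21, 1.95 and 1.53 FPKM with SNS-032 and 3.15, 3.76 and 3.58 FPKM with THAL-SNS-032 (0.82, SE 0.12, adjusted p = 0.00018, limma). MDM2, the ubiquitin ligase of p53, was lower (-0.99), and BAX, a death effector, had 0.18 and did not pass. Without SNS-032 replicate 1, 24 of the 27 were lower and 1 higher, and after centring 23 and 2. Over all 11381 genes these counts were 3424 lower and 1499 higher, and after centring 2629 and 5822. Without SNS-032 replicate 3 the number higher was 2.

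**Figure D3:**
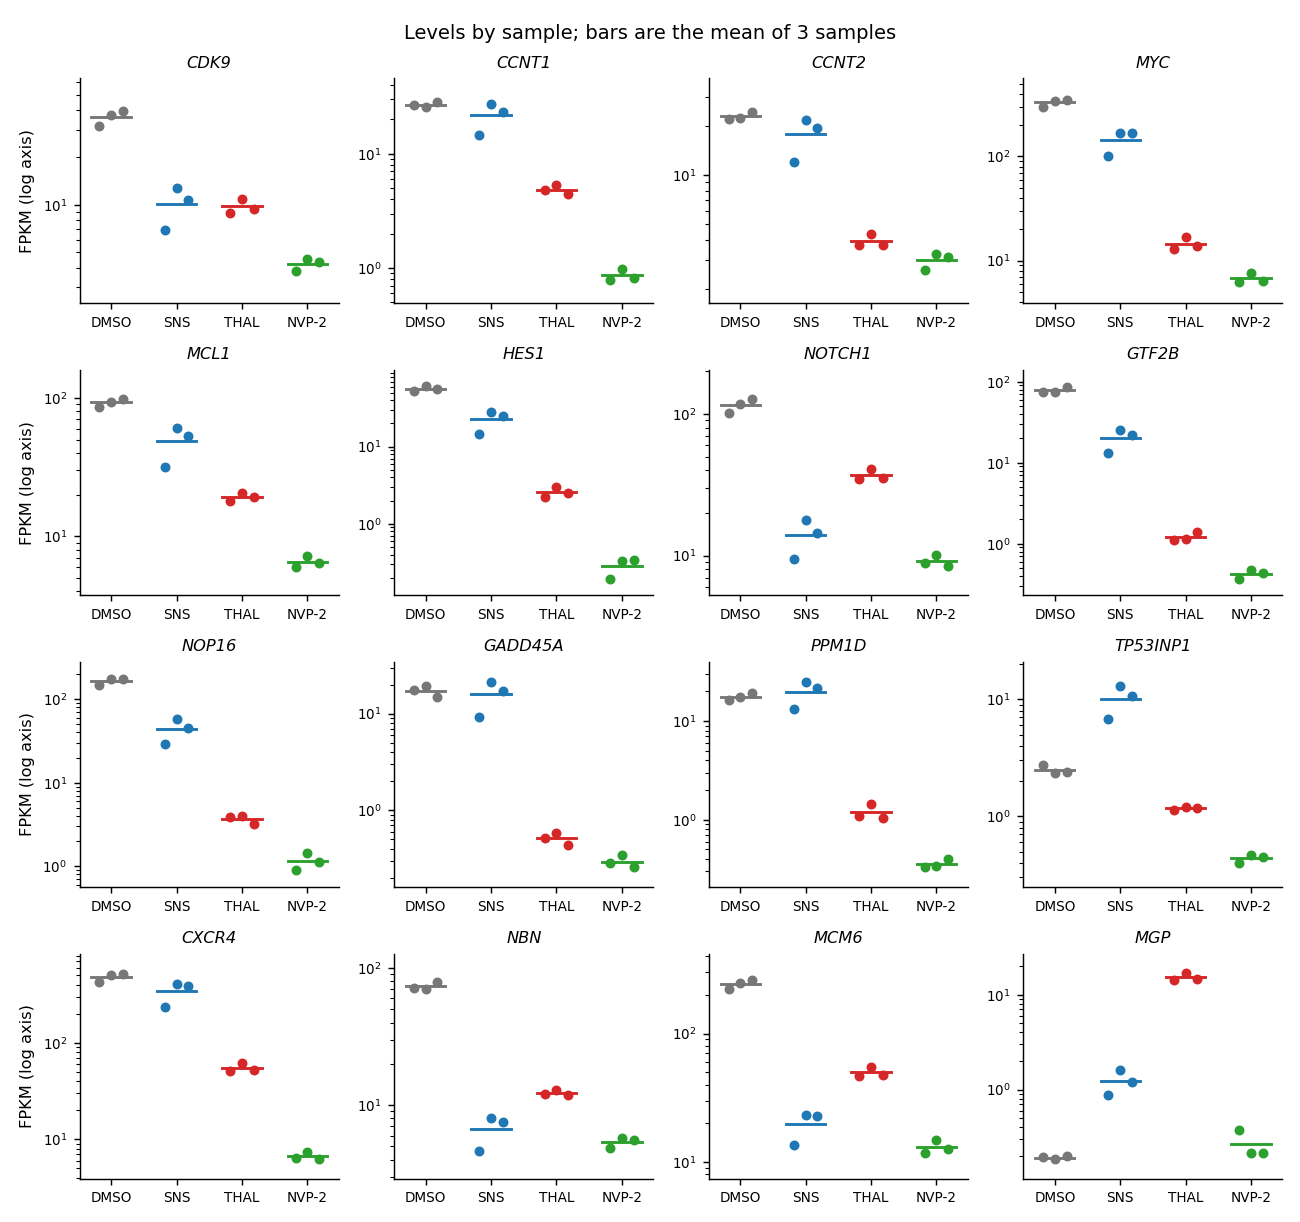
FPKM of 16 genes in each sample (vertical axis, log scale, set separately for each gene) by group (horizontal axis, vehicle first, then the parent, the degrader and NVP-2), with points for the 3 samples and a bar for their mean. CDK9 overlaps between SNS-032 and THAL-SNS-032, 11 genes, among them CCNT1, MYC and CXCR4, are lower with THAL-SNS-032, and NOTCH1, NBN, MCM6 and MGP are higher.

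Immediate early genes, which encode labile regulators induced by signals, were lower in 12 of 19 tested cases (63.2%, against 16.7% of all genes). Higher was 1 (5.26%, against 13.4%), and the list median was -0.66. The lower ones included the mRNA decay factor ZFP36L2 (-1.94), IER5 (-1.72), the AP-1 subunit JUNB (-1.26) and the phosphatase DUSP2 (-1.15), and the higher one was ZFP36 (0.68), a paralog of ZFP36L2. JUNB was at 3.38, 6.79 and 5.34 FPKM with SNS-032 and 1.37, 1.89 and 1.31 FPKM with THAL-SNS-032. Of 10 genes of the NF-kB system 3 were lower (30%), the feedback inhibitors NFKBIA (-1.88) and TNFAIP3 (-1.57) and the subunit RELA (-0.76). The kinase subunits IKBKB (0.79) and IKBKG (0.63) were higher (20%). NFKBIA was at 8.01, 15.3 and 13 FPKM and 2.09, 2.22 and 3.16 FPKM, with no overlap. NF-kB genes called lower numbered 6 without SNS-032 replicate 1, and without THAL-SNS-032 replicate 2 or 3, 1 was higher. ZFP36 was picked after its value was seen, as the only higher member of its list. IKBKG was not called without THAL-SNS-032 replicate 2 or 3.

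Among 20 transcription factors tied to T-ALL, 4 were lower and 4 higher, 20% in each direction and not far from the 16.7% and 13.4% of all genes. GATA3, a T-lineage factor, was at 10.7, 17.6 and 18 FPKM with SNS-032 and 3.57, 4.11 and 3.58 FPKM with THAL-SNS-032 (-1.76), and LMO2 (-1.01) and MYB (-0.91), both T-ALL oncogenes, and FLI1 (-0.57) were the other lower members. TAL1, the oncogene that heads this circuit, was at 1.6, 3.27 and 2.56 FPKM and 2.48, 3.33 and 2.49 FPKM and did not pass (0.14). HHEX, a homeobox gene of early blood development, was the most increased, at 0.756, 0.932 and 2.01 FPKM with SNS-032 and 6.86, 8.07 and 8.0 FPKM with THAL-SNS-032, above 1.66 ± 0.183 FPKM (SD, n = 3) in DMSO and with a difference of 1.99 (SE 0.18, adjusted p = 1.53e-06, limma). Without SNS-032 replicate 1 the number lower was 9, beside 3424 of all 11381 genes. The number higher was 7 without SNS-032 replicate 2 and 2, 1 and 2 without THAL-SNS-032 replicates 1, 2 and 3, and 2 without NVP-2 replicate 1 or 3. FLI1 was not called without SNS-032 replicate 2 or 3 or any 1 THAL-SNS-032 sample.

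In the NOTCH1 pathway, which is often activated by mutation in T-ALL, the receptor gene was higher with the degrader and HES1 lower. NOTCH1 was at 9.54, 17.7 and 14.5 FPKM with SNS-032 and 35, 40.8 and 35.1 FPKM with THAL-SNS-032, higher with the degrader in every sample, while both groups were below DMSO (116 ± 12.8 FPKM, SD, n = 3). HES1, a direct target of the receptor that encodes a repressor, was at 14.6, 28.3 and 24.9 FPKM and 2.24, 3.04 and 2.49 FPKM, lower with the degrader in every sample. The differences were 1.38 (SE 0.20, adjusted p = 0.00011, limma) and -2.67 (SE 0.20, adjusted p = 4.07e-07, limma), and 1.15 and -2.95 without SNS-032 replicate 1. Of 16 tested members 6 were higher (37.5%, against 13.4% of all genes). Among them were the gamma-secretase subunits NCSTN (0.81) and APH1A (0.63) and the protease ADAM10 (0.54), all of which take part in cleaving the receptor. Another was PTCRA (0.67), which encodes the pre-T-cell receptor chain and is itself a known target of NOTCH1. The 3 lower (18.8%, near the 16.7% of all genes) were HES1, FBXW7 (-1.16), the ligase subunit that marks cleaved NOTCH1 for degradation, and the coactivator MAML1 (-0.88). Without THAL-SNS-032 replicate 2 the number higher was 2. APH1A was not called without DMSO replicate 2 or 3 or any 1 THAL-SNS-032 sample or any 1 NVP-2 sample. ADAM10 was not called without DMSO replicate 2 or any 1 THAL-SNS-032 sample. PTCRA was not called without THAL-SNS-032 replicate 2.

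The ligase that the degrader recruits, and the proteins such ligands are known to bring to it, were also measured at the RNA level. CRBN, which encodes cereblon, was at 5.02, 10.6 and 8.24 FPKM with SNS-032 and 4.31, 4.88 and 4.12 FPKM with THAL-SNS-032, below DMSO (38.1 ± 1.33 FPKM, SD, n = 3) in both, with a difference of -0.67 (SE 0.20, adjusted p = 0.0187, limma). CUL4A, the cullin scaffold, was higher, at 7.31, 12.2 and 11.8 FPKM and 16.6, 19.9 and 17 FPKM (0.75). Of 19 tested genes 5 were lower and 5 higher (26.3% each, against 16.7% and 13.4% of all genes), the former with the ubiquitin-conjugating enzyme genes UBE2G1 (-1.48) and UBE2D3 (-0.77) and the neosubstrates IKZF2 (-0.58) and IKZF3 (-0.49), the latter with the signalosome subunit COPS5 (0.74). IKZF1, the lymphoid neosubstrate Ikaros, was at 28.6, 51.8 and 48.5 FPKM and 28.5, 32.8 and 28.4 FPKM and did not pass (-0.47, adjusted p = 0.091, limma), and without SNS-032 replicate 1 its difference was -0.73. The number lower was 9 without that sample, beside 3424 of all 11381 genes. It was 3 without SNS-032 replicate 2 or 3 or THAL-SNS-032 replicate 1 or 3, and the number higher was 3 without THAL-SNS-032 replicate 2. CRBN was not called without SNS-032 replicate 2 or 3 or THAL-SNS-032 replicate 1 or 3. IKZF3 was not called without SNS-032 replicate 2 or 3 or any 1 THAL-SNS-032 sample. COPS5 was not called without THAL-SNS-032 replicate 2. IKZF1 passed without SNS-032 replicate 1.

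Ribosome biogenesis genes, which make and assemble ribosomal subunits in the nucleolus, were lower in 25 of 54 cases (46.3%, against 16.7% of all genes). Higher were 5 (9.26%, against 13.4%) and not called 24, with a median of -0.49. NOP16, a nucleolar assembly factor, was at 29.4, 58.3 and 45.4 FPKM with SNS-032 and 3.84, 4.02 and 3.2 FPKM with THAL-SNS-032, and BRIX1, a large-subunit assembly factor, at 39, 70.1 and 64.1 FPKM and 6.0, 6.77 and 5.34 FPKM. In DMSO they were at 165 ± 14.6 FPKM and 198 ± 14 FPKM (SD, n = 3), and with the degrader neither group of 3 reached the parent samples. Their differences were -3.23 and -3.02, followed by the small-subunit kinase RIOK2 (-2.63), MPHOSPH10 (-2.51) and NGDN (-2.47). With each sample left out in turn the number lower stayed between 19 and 37, and the number higher fell to 1 without any 1 THAL-SNS-032 sample and to 3 without NVP-2 replicate 1 or 3. The 83 tested cytosolic ribosomal protein genes, which encode the finished parts of the same particle, gave no call in either direction (2 lower without SNS-032 replicate 1), 82 of them with an interval within 2-fold, a range of -0.13 to 0.37 and a median of 0.24. After centring 77 of the 83 were higher and 0 lower, beside 5822 and 2629 of all 11381 genes.

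Replication genes were called in both directions, and the calls among mitotic genes were mostly lower. Of 40 G1/S and DNA replication genes 11 were higher (27.5%, against 13.4% of all genes) and 8 lower (20%, near the 16.7% of all genes). The median was 0.40. MCM6, a subunit of the replicative helicase, was at 13.6, 23.2 and 22.6 FPKM with SNS-032 and 46.9, 54.7 and 47.7 FPKM with THAL-SNS-032 (1.32, SE 0.20, adjusted p = 0.00015, limma), below DMSO (244 ± 18.7 FPKM, SD, n = 3) in both. The licensing inhibitor GMNN (-1.93), the transcription factor E2F3 (-1.81), the histone mRNA-binding protein gene SLBP (-1.57) and the sliding clamp PCNA (-0.86) were lower. Without SNS-032 replicate 2 the number higher was 18, and without any 1 THAL-SNS-032 sample it was 6. Of 35 G2/M and mitosis genes 16 were lower (45.7%) and 2 higher (5.71%), with a median of -0.44. At the lower end were KIF23 (-2.13), a kinesin of cell division, cyclin B1 (CCNB1, -1.95), CKS2 (-1.9) and the spindle checkpoint kinase TTK (-1.8). CCNB1 was at 78.4, 137 and 132 FPKM with SNS-032 and 26.9, 30.9 and 27.1 FPKM with THAL-SNS-032. Without SNS-032 replicate 1 the number lower was 25, beside 3424 of all 11381 genes. The number higher was 4 without SNS-032 replicate 2 and 1 without THAL-SNS-032 replicate 2. WEE1, the kinase that holds CDK1 inactive, was lower as well (-2.16). Among 20 cell cycle kinases, cyclins and inhibitors, WEE1 included, 10 were lower (50%) and 2 higher (10%).

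Of 30 tested DNA repair genes 16 were higher with the degrader (53.3%, against 13.4% of all genes), 2 lower (6.67%, against 16.7%) and 12 not called. The median was 0.50, and 0.32 without SNS-032 replicate 1, where the counts were 16 and 3. NBN, which encodes a subunit of the double-strand break sensor, was at 4.65, 8.01 and 7.59 FPKM with SNS-032 and 12, 12.9 and 11.9 FPKM with THAL-SNS-032. BRCA1, a homologous recombination gene, was at 4.34, 7.15 and 6.54 FPKM and 10.5, 12.1 and 10.4 FPKM. In both genes the lowest degrader sample was above the highest parent sample, and all 6 were below the DMSO means of 73.5 and 44.1 FPKM. The differences were 0.81 and 0.80 (adjusted p = 0.00314 and 0.00231, limma). FANCA (0.73), of the Fanconi anemia core complex, and the checkpoint kinase ATR (0.71) were higher as well, while PALB2 (-1.89), which links BRCA1 to BRCA2, and BARD1 (-0.70), the partner of BRCA1, were lower. Without THAL-SNS-032 replicate 2 the number higher was 8. After centring it was 24, beside 5822 of all genes.

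**Figure D4:**
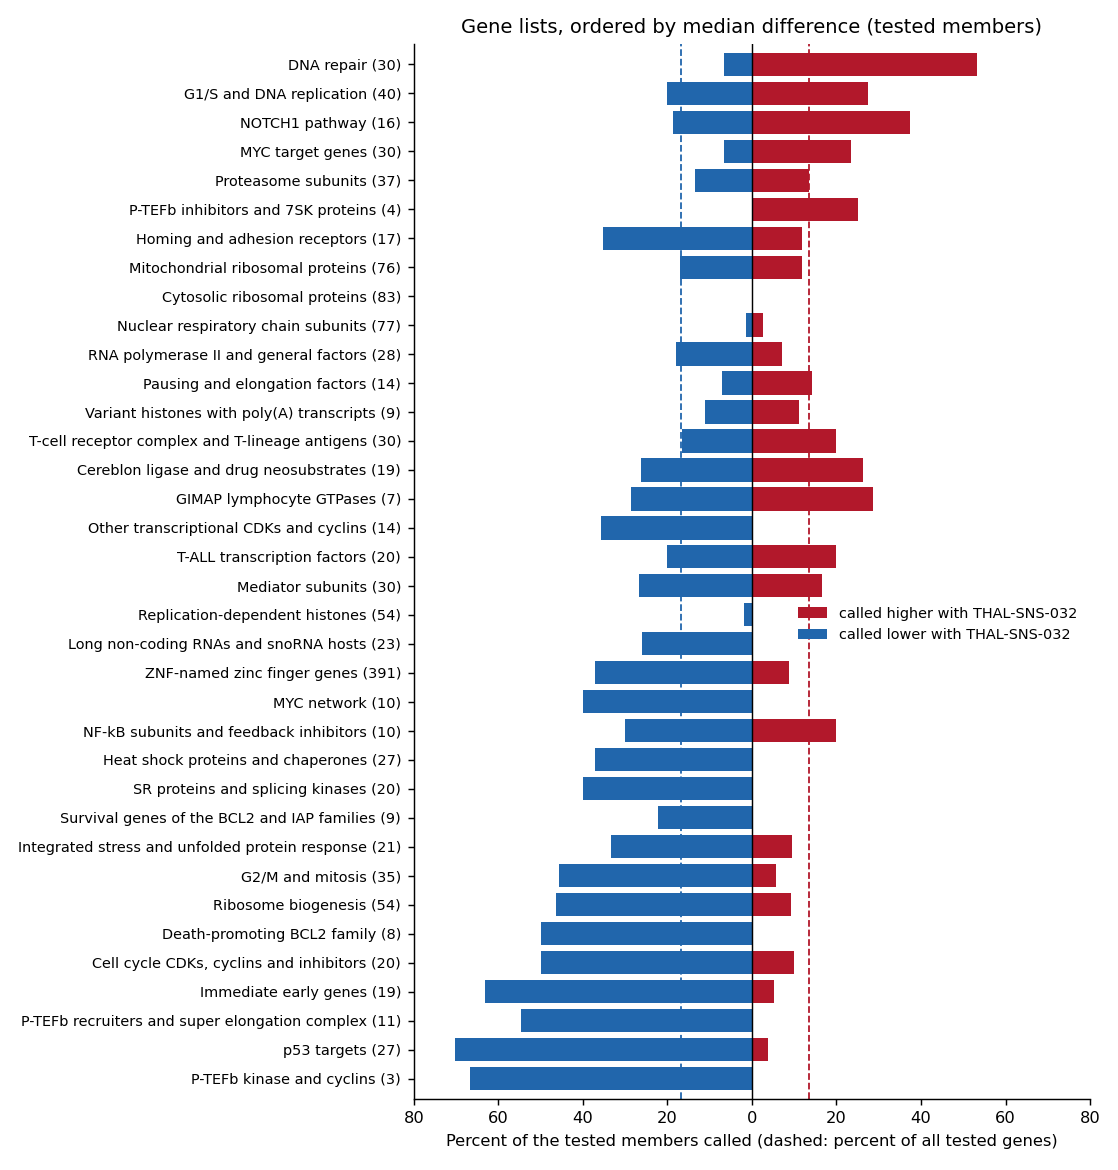
Percent of the tested members of each of 36 gene lists that were called lower (blue, to the left) or higher (red, to the right) with the degrader than with its parent, with the number tested in brackets and the lists ordered by median difference. Dashed lines mark 16.7% and 13.4%, the shares of all tested genes. DNA repair reaches 53.3% higher and p53 targets 70.4% lower, and cytosolic ribosomal proteins have no called member.

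Splicing regulators were lower in 8 of 20 cases (40%, against 16.7% of all genes) and higher in none (median -0.23). The kinases of SR proteins led, with CLK1 at 37.2, 69.4 and 63 FPKM with SNS-032 and 11, 11.2 and 10.6 FPKM with THAL-SNS-032 (-2.22), then DYRK1A (-2.11), CLK3 (-1.33) and CLK4 (-1.18), and of the SR proteins SRSF4 (-1.15) differed most. Without SNS-032 replicate 2, 2 members were higher. Of 23 long non-coding RNAs and snoRNA hosts 6 were lower (26.1%) and none higher, led by SNHG15 (-2.2) and MIR17HG (-1.22), the host of the miR-17-92 cluster. The nuclear RNA MALAT1 had 0.11 and did not pass. In this list 11 were lower without SNS-032 replicate 1.

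Heat shock and unfolded protein response genes were called lower more often than higher. Of 27 heat shock and chaperone genes 10 were lower (37%, against 16.7% of all genes) and none higher. The transcription factor HSF2 (-2.58) and HSPA13 (-1.86) led these. HSPA1A (-0.94) and HSPA1B (-0.99), near-identical copies whose reads may be split between them, were lower too. HSPA8, the constitutive chaperone, had -0.26 and did not pass. Of 21 integrated stress and unfolded protein response genes 7 were lower (33.3%) and 2 higher (9.52%, against 13.4% of all genes). The former included DDIT4 (-1.84), an mTORC1 inhibitor, and the kinase EIF2AK3 (-1.22). The latter included PPP1R15B (0.73), a phosphatase subunit of the pathway. In these lists 16 and 14 genes were lower without SNS-032 replicate 1, beside 3424 of all 11381 genes. Without any 1 THAL-SNS-032 sample or NVP-2 replicate 3 the stress response list had 1 higher member. The heat shock list had 1 higher member without SNS-032 replicate 2 or 3. HSPA8 passed without SNS-032 replicate 1.

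Surface genes of these T-lineage cells differed one by one. CXCR4, a chemokine receptor that holds T-ALL cells in the marrow, was at 233, 403 and 388 FPKM with SNS-032 and 50.6, 61.4 and 51.8 FPKM with THAL-SNS-032 (-2.59, SE 0.21, adjusted p = 6.59e-07, limma), and CCR9, a gut-homing receptor, at 18.6, 38.9 and 32.2 FPKM and 5.68, 7.11 and 5.43 FPKM (-2.07). CXCR6, the receptor for CXCL16, went the other way, at 0.457, 0.771 and 0.871 FPKM and 5.78, 8.05 and 6.32 FPKM (2.18), and it was at 0.387 ± 0.179 FPKM (SD, n = 3) in DMSO. Of 17 homing and adhesion genes 6 were lower (35.3%, against 16.7% of all genes). Higher were 2 (11.8%, near the 13.4% of all genes), CXCR6 and the integrin ITGAL (0.62), with 1 higher without any 1 THAL-SNS-032 sample. Of 30 T-cell receptor and T-lineage genes 5 were lower (16.7%, the share of all genes), led by THEMIS (-1.61), a regulator of thymocyte selection, and 6 higher (20%, against 13.4%), led by the adaptor LAT (0.79). LCK, the kinase that starts receptor signalling, was at 48.4, 82.7 and 81.4 FPKM and 99.7, 115 and 102 FPKM (0.60). The number higher was 10 without SNS-032 replicate 2, 0 without THAL-SNS-032 replicate 2 and 3 without THAL-SNS-032 replicate 3, and the number lower was 8 without SNS-032 replicate 1. All 11 T-lineage markers of the line were measured above the filter, and all 6 fibroblast markers were under 1 FPKM in all 12 samples. The summed level of the T-lineage markers was 764 to 1277 FPKM with SNS-032 and 1350 to 1505 FPKM with THAL-SNS-032. It too was higher with the degrader without overlap, so such a rise was not particular to the B-lineage and myeloid markers that follow. The summed levels of the 6 erythroid, the 6 epithelial and the 6 fibroblast markers each overlapped between SNS-032 and THAL-SNS-032. Of 6 B-lineage markers 4 were under 1 FPKM in all samples, MS4A1, PAX5 and EBF1 among them, and 1 passed the filter. The summed level of the 6 was 2.71 to 5.56 FPKM with SNS-032, 5.77 to 6.9 FPKM with THAL-SNS-032 and 11.8 to 12.9 FPKM in DMSO, higher with the degrader than with the parent without overlap. The summed level of the 7 myeloid markers was 2.15 to 3.91 FPKM with SNS-032, 4.47 to 5.80 FPKM with THAL-SNS-032 and 1.42 to 1.65 FPKM in DMSO, with CSF1R, ITGAM, CEBPA and ELANE under 1 FPKM in all samples, again without overlap between degrader and parent, and the part of these marker levels in the results was not tested. ITGAL was not called without any 1 THAL-SNS-032 sample. LAT was not called without THAL-SNS-032 replicate 2. LCK was not called without DMSO replicate 2 or 3 or any 1 THAL-SNS-032 sample or NVP-2 replicate 1 or 3.

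Of 391 zinc finger genes named ZNF 145 were lower (37.1%, against 16.7% of all genes), 34 higher (8.7%, against 13.4%) and 212 not called, with ZNF622 (-3.62), a ribosome assembly factor, ZNF317 (-3.11) and ZNF263 (-3.08) lowest. The number higher was 65 without SNS-032 replicate 2 and 18 without THAL-SNS-032 replicate 2. Of 76 mitochondrial ribosomal protein genes 13 were lower (17.1%, near the share of all genes), led by MRPL44 (-2.83) and MRPS30 (-2.71). Higher were 9 (11.8%, near the 13.4% of all genes), up to MRPL12 (1.04). The number lower was 28 without SNS-032 replicate 1 (beside 3424 of all 11381 genes), 8 without SNS-032 replicate 2 and 7 without THAL-SNS-032 replicate 1 or 3. The number higher was 22 and 14 without SNS-032 replicates 2 and 3 and 5 without THAL-SNS-032 replicate 2. Of 77 nuclear respiratory chain genes 1 was lower (1.3%, against 16.7% of all genes), UQCRFS1 (-1.27) of complex III. Higher were 2 (2.6%, against 13.4%), and 74 had an interval within 2-fold. In that list the number lower was 3 without SNS-032 replicate 1, and the number higher was 5 without SNS-032 replicate 2 and 1 without any 1 THAL-SNS-032 sample. Proteasome subunits had 5 members in each direction among 37 (13.5%, close to the shares of all genes), from PSMD14 (-1.52), the deubiquitinase of the lid, to PSMB10 (0.83), an immunoproteasome subunit, with 9 lower without SNS-032 replicate 1. The number of higher proteasome genes was 8 without SNS-032 replicate 2, 1 without THAL-SNS-032 replicate 2 or 3, and 2 or 3 without THAL-SNS-032 replicate 1 or any 1 DMSO or NVP-2 sample. Of 54 replication-dependent histone genes 1 was lower (1.85%, against 16.7% of all genes) and none higher (against 13.4%). Histone genes called lower numbered 8 without SNS-032 replicate 1, without SNS-032 replicate 2 the number higher was 2, and without each other sample 0 to 2 were lower.

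Apart from short RNAs and loci without a gene name, several of the genes with the very largest differences upward were low in DMSO and with the parent. The 84 genes called higher by at least 2-fold were as a set not low in DMSO. Their median level was 25.9 FPKM in DMSO (28.0 FPKM over all tested genes), 2.65 FPKM with SNS-032 and 8.50 FPKM with THAL-SNS-032. MGP, which encodes a vitamin K-dependent matrix protein, was at 0.885, 1.62 and 1.21 FPKM with SNS-032 and 14.5, 16.8 and 14.7 FPKM with THAL-SNS-032, against 0.19 ± 0.00702 FPKM (SD, n = 3) in DMSO and 0.268 ± 0.0939 FPKM with NVP-2, a difference of 2.88. CHRNA10, a nicotinic receptor subunit gene, was at 0.806, 1.67 and 1.11 FPKM and 8.69, 10.1 and 8.08 FPKM (2.19), and SLC6A20, an amino acid transporter gene, at 1.01, 1.78 and 1.62 FPKM and 6.72, 8.45 and 7.63 FPKM (1.81). In these 3 genes the degrader level was above that of DMSO. MGP, SLC6A20, TMEM176A and CXCR6 passed the filter on low values only through the THAL-SNS-032 samples, so that they had to differ, and their differences are given as descriptions. KRCC1 was different, at 41.2, 45.2 and 45.4 FPKM in DMSO, 0.948, 2.07 and 1.1 FPKM with SNS-032, 10.3, 13 and 9.78 FPKM with the degrader and 1.17, 1.32 and 0.992 FPKM with NVP-2, so that it was lower than DMSO with every compound and least so with the degrader. Its difference between the pair was 2.36. RCVRN, a photoreceptor calcium sensor gene (1.6), PYY2 (1.72) and TMEM176A (1.6) were also among the 15 largest.

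Most genes called higher were still below DMSO with the degrader. The 1525 genes called higher had a median DMSO level of 27.6 FPKM, 4.07 FPKM with SNS-032 and 7.22 FPKM with THAL-SNS-032, and the 1900 called lower had 28.8, 8.08 and 2.75 FPKM. The median differences from DMSO were -1.68 for the degrader and -2.31 for the parent in the former, and -2.81 and -1.69 in the latter, from comparisons that share the DMSO samples. B3GNT2, a glycosyltransferase gene, had the largest difference downward apart from short RNAs and loci without a gene name, at 23.1, 44 and 39.6 FPKM with SNS-032 and 1.47, 1.9 and 1.59 FPKM with THAL-SNS-032 (-3.74). Among the highest-expressed genes called higher were ADA (0.63), adenosine deaminase, at 442, 709 and 753 FPKM and 898, 1023 and 953 FPKM, and ACTG1 (0.59), a cytoskeletal actin, at 0.34 without SNS-032 replicate 1. GAPDH and ACTB, often used as references, had 0.35 (95% interval -0.072 to 0.78) and 0.49 (0.034 to 0.94) and did not pass. ADA was not called without any 1 THAL-SNS-032 sample. ACTG1 was called when DMSO replicate 1 or SNS-032 replicate 2 or 3 was left out, and not when any other single sample was.

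The difference between degrader and parent was set against the effect of NVP-2, which shares no sample with it. Over the 11381 genes THAL-SNS-032 minus SNS-032 and NVP-2 minus DMSO had a Spearman rho of 0.244 and a Pearson r of 0.275, and 0.357 and 0.398 over the 8654 genes with 10 FPKM or more in DMSO. Genes are not independent replicates, and both comparisons carry the same transcript features, so no p is given. In the quintile of genes that NVP-2 lowered most, 41.0% were called lower with the degrader and 9.93% higher, and in the quintile it lowered least or raised 6.41% were lower and 13.6% higher. In the quintiles between, in the same order, 18.5%, 11.6% and 5.89% were lower. There 16.1%, 14.7% and 12.7% were higher, so the share higher did not rise steadily. Leaving out SNS-032 replicate 1, the shares lower in these quintiles were 59.8% and 13%. Median NVP-2 minus DMSO differences were -3.39 in the genes called lower with the degrader and -2.53 in those called higher, beside -2.54 over all.

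Exon number in GENCODE release 29, matched by symbol for 10476 genes (92.0%), also went with the direction of the difference. Of 777 protein-coding genes with at most 3 exons but more than 1 in the transcript with the most exons, 30.9% were called lower and 8.49% higher, and of 2364 with 16 or more exons 10.3% were lower and 18.9% higher. The shares in between followed in order, with 20.4% lower for 4 to 8 exons and 15.6% for 9 to 15, while the 197 single-exon genes had 11.7% lower and 6.6% higher. Leaving out SNS-032 replicate 1, the shares lower were 44.5% for the group with at most 3 exons and 24.4% for that with 16 or more. The genes called lower had a median of 7 exons and those called higher 11, against 9 for all 9860 protein-coding genes. RNA half-life was not measured here, and its part in these shares was not tested.

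**Figure D5:**
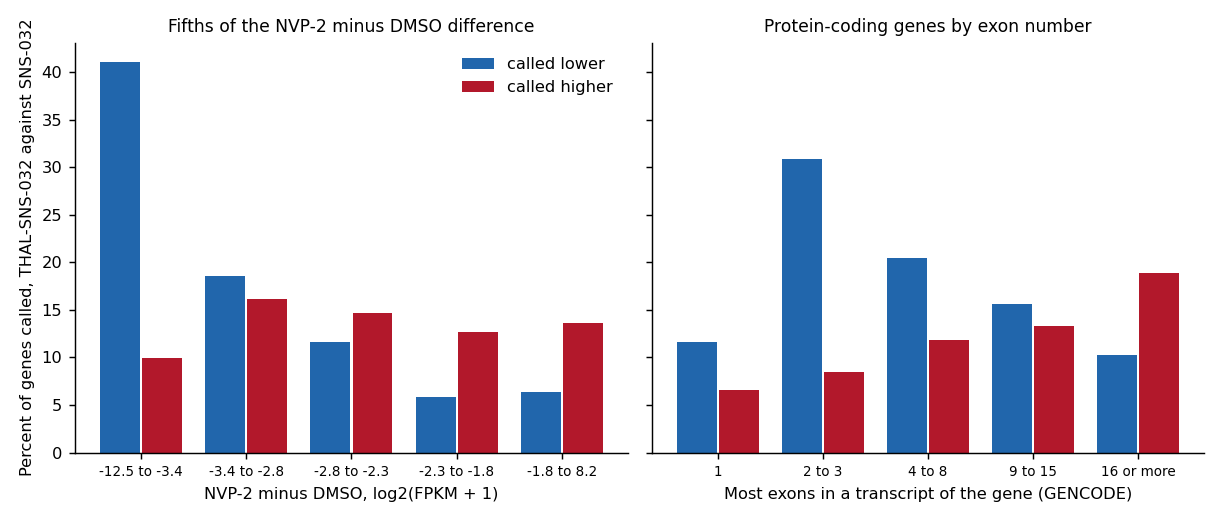
Percent of genes called lower (blue) or higher (red) with the degrader than with its parent (vertical axis). The left panel groups the 11381 genes by quintile of the NVP-2 minus DMSO difference, the right panel 9860 protein-coding genes by exon number. The share called lower is 41.0% in the quintile that NVP-2 lowered most and 6.41% in the last, and falls from 30.9% to 10.3% between genes with 2 to 3 and with 16 or more exons.

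Short RNA genes (small nucleolar, small nuclear and microRNA genes, a class chosen after the values were seen) had the lowest median of the 4 gene types compared (protein-coding, long non-coding, short and pseudogene). Of 242 tested, 50 were lower with the degrader (20.7%, against 16.7% of all genes, a share near the background) and 5 higher (2.07%, against 13.4%), with a median of -0.98, or -1.11 without SNS-032 replicate 1 and -0.89 after centring. The median difference from DMSO was -0.030 for the parent, -0.67 for the degrader and -0.92 for NVP-2. MIR29C, a microRNA precursor gene, was at 859.7, 2287 and 1516 FPKM with SNS-032 and 407, 502 and 489 FPKM with THAL-SNS-032 (-1.63). SNORD100, a box C/D small nucleolar RNA, was at 5913, 6337 and 7404 FPKM and at 0.0558, 0.0596 and 0.0572 FPKM with the degrader. Such RNAs lack the poly(A) tail that the libraries select and are shorter than usual fragments, so values near 0 may be failed estimates, and no fold is given for SNORD100.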

How the data were processed

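RNA from 12 MOLT4 samples, 3 per group, was analysed from 1 deposited table of FPKM values, which the authors made with HISAT and Cufflinks 2.0.0 on hg19, per the submitters' processing notes. The gene annotation, and how the ERCC spike-ins entered the FPKM scale, are not given in the sources used here. The 92 ERCC entries were left out of the tests, and 2 repeated symbols were removed. Values were used as deposited, as log2(FPKM + 1), for the 11381 genes averaging at least 1 FPKM across samples.

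limma 3.58.1 (R 4.3.3) with an intensity trend was fitted to the 4 groups (8 residual degrees of freedom), with Benjamini-Hochberg adjustment over all tested genes. The table gives no counts, so no interval for counting error could be set and the precision comes only from the 3 samples of each group. The procedure was tested on simulated data. The alternatives covered the pseudocount (0.1 and 5), the filter, the scale, the fit and each sample left out in turn.

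The samples, gene lists and named genes were chosen with earlier results of these data known. Named genes were the 15 largest differences in each direction among called genes with no overlap between the groups, the 8 called genes of highest mean in each direction, up to 5 called members of each list by size of difference, the highest-expressed member, every member of lists of at most 30 genes, and 12 fixed genes (CDK9, CCNT1, CCNT2, CDK7, CDK2, MYC, MCL1, XIAP, CRBN, IKZF1, GAPDH and ACTB). Short RNAs and loci without a gene name were left out of the first group. Gene types and exon numbers came from GENCODE release 29 by symbol, and promoters from RefSeq, builds that differ from hg19, so no gene coordinate was combined with the FPKM values.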

Additional observations from a re-analysis of the deposited data

How the results depend on the processing

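None of the 1525 higher and 1900 lower calls changed direction without SNS-032 replicate 1, with libraries centred on their medians or with quantile normalization. Nor did any with equal ERCC medians or with a replicate block. In this balanced layout a replicate block leaves every difference as it is, and centring raised all of them by the same 0.086. Equal ERCC medians moved them by a median of 0.018, so these settings could hardly reverse a called gene. The counts moved more than the directions, and the cause was not tested. The number higher was 5822 after centring, 5912 after quantile normalization, 507 with only the 6 samples of the pair and 11 against a 2-fold minimum. The number lower was 2938 after quantile normalization and 296 against a 2-fold minimum. With each sample left out in turn the number higher ranged from 614 to 2765, the number lower from 1479 to 3424 and the number with an interval within 2-fold from 7935 to 9222. That last number was 20832 with no filter, where more genes were tested, and 3519 for an interval of 1.5-fold. With equal ERCC medians 48.4% of calls were higher, and after quantile normalization 66.8%, against 44.5% as reported.

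Over genes, the deviations of same-numbered THAL-SNS-032 and SNS-032 samples correlated at 0.029, 0.067 and -0.052. Such a correlation leaves out any shift of a whole library. Replicate 1 had the lowest library median in every group, DMSO included. Replicate 2 had the highest with each compound, and replicate 3 in DMSO. Whether the replicate numbers pair the samples was not settled. With a replicate block 2308 genes were higher and 2133 lower. The library median difference stayed at -0.086, as it must in this balanced layout.

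The library median difference was 0.0086 with no filter and ranged from -0.31 (without SNS-032 replicate 1) to 0.064 (without SNS-032 replicate 2) with samples left out. Of 153 named genes 140 were called and none of these reversed. Among those not called, with samples left out in turn the difference ranged from -0.071 to 0.35 for BAX, from -0.12 to 0.30 for MALAT1, from -0.057 to 0.30 for TAL1 and from -0.22 to 0.20 for XIAP, each time lowest without SNS-032 replicate 1 and highest without SNS-032 replicate 2. XIAP was at -0.0016 with a pseudocount of 5 and -0.039 without THAL-SNS-032 replicate 2. CDK9 was at 0.064 after centring, 0.046 after quantile normalization, -0.25 without SNS-032 replicate 1, and 0.15, 0.036 and 0.035 without SNS-032 replicate 2, SNS-032 replicate 3 and THAL-SNS-032 replicate 1. Depth could not be assessed from FPKM.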
